A study of Mus musculus with 12 samples.

Results

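Clustered distal acetylated regions were stretches of chromatin away from the ends of genes that most libraries held and that lay close to another such stretch. They were chosen from the peak lists themselves. In each of 6 H3K27ac libraries the 30000 peaks of highest deposited score on chromosomes 1 to 19 and X were kept (called main peaks here). Main peaks that overlapped by 1 bp or more were merged, which gave 127635 regions. Of these, 1328 were held by at least 5 of the 6 libraries and lay more than 1 kb from both ends of every protein-coding gene on GRCm38. A region with another of the 1328 within 12500 bp, edge to edge, was a member, and members were stitched into clusters. This gave 90 regions in 43 clusters, 39 of 2 regions and 4 of 3, or 6.78% of the shared distal regions. The other shared distal regions were solitary, 946 inside a gene and 292 between genes, and 5573 shared regions lay at gene ends. The count rested in part on single libraries. With 1 library left out and at least 4 of the remaining 5 required, the rule gave more regions each time. These ran from 94 in 45 clusters without Azin2-/- replicate 1 to 146 in 68 clusters without wild-type replicate 1.

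The libraries were H3K27ac chromatin immunoprecipitations from adipocyte progenitors of mouse subcutaneous fat, 3 from Azin2-/- mice, numbered 1, 2 and 8, and 3 from wild-type mice, numbered 1, 2 and 2b. Azin2 encodes antizyme inhibitor 2, a relative of ornithine decarboxylase that has no decarboxylase activity of its own and frees ornithine decarboxylase, the entry enzyme of polyamine synthesis, from its inhibitor antizyme. All cells of both genotypes were kept for 1 week in medium with 10% serum and 4.5 g/L glucose. They then received 1 µM rosiglitazone, 1 µM dexamethasone, 0.5 mM isobutylmethylxanthine and 5 µg/ml insulin for 2 days, an adipogenic mixture, followed by 5 days in which insulin was the remaining addition. The labels do not say how the Azin2 allele was made, how many mice gave the cells, or their sex or age. Nor do they say whether wild-type replicates 2 and 2b came from separate cultures. A p-value here thus rests on the spread between these samples, which may be technical. The limma p-values below also draw on a spread shared over all rows tested. The 6 input libraries were not analysed here.

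H3K27ac, the acetyl mark on lysine 27 of histone H3, is found at promoters in use and at active enhancers, the distal elements that raise transcription of a gene from a distance. Enhancers are often found in groups, and dense groups of acetylated elements are known for lying at genes that define a cell's identity, many of them for transcription factors. In fat precursors, elements of this kind at adipogenic regulators such as the C/EBP factors and the nuclear receptor PPARG become acetylated as differentiation begins.

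The word distal was checked against annotated transcription starts. The selection used the outermost ends of each gene span, and a gene can start at several places inside its span. Of the 90 regions, 18 (20%) contained an annotated start in the RefSeq table for GRCm38.p6, and 20 had one within 1 kb. For solitary regions inside genes the share with a start inside was 53.0%, for solitary regions between genes 14.0%, and for shared regions at gene ends 76.8%. Among the clustered regions it was 14 of 57 (24.6%) inside a gene span and 4 of 33 (12.1%) outside. A start lay in 16 of the 43 clusters, and in 1 of them every region held one. Leaving out shared distal regions within 1 kb of any annotated start left 56 regions in 27 clusters. They are therefore called clustered regions here, away from gene ends but not in every case from starts.

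The sequences before these starts show what kind of start the clustered regions contain. Below are the 250 bases before each annotated start that a clustered region contains in the 10 leading clusters described further on, and, for contrast, before the start with fewest CpG dinucleotides among all those in clustered regions, that of the long noncoding RNA Tbrg3. Starts between the regions of a cluster, such as those of Bbc3 in its gene-end region, are not printed. The sequences are from RefSeq (GRCm38.p6), read 5′ to 3′ on the strand of the gene, with every CpG in capitals.
Ebf3, chr7:137314446-137314695, minus strand: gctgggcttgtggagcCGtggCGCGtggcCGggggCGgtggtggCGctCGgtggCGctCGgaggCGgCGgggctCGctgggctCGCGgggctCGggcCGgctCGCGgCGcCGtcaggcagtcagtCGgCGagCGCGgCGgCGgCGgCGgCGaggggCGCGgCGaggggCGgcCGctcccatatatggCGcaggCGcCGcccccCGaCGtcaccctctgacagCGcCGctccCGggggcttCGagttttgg
Ptch1, chr13:63565736-63565985, minus strand: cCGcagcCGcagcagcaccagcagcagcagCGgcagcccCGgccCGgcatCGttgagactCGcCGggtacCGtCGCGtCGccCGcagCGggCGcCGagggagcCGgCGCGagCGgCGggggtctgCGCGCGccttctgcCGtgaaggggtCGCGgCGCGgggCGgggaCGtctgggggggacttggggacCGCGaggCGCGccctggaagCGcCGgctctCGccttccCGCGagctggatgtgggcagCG
Smarcd3, chr5:24602003-24602252, minus strand: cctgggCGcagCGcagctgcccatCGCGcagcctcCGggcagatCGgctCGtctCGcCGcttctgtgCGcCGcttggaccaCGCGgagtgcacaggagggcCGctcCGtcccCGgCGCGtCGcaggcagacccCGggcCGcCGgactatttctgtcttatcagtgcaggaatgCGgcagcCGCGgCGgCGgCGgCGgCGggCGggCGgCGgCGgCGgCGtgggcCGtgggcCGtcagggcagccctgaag
Cic, chr7:25281929-25282178, plus strand: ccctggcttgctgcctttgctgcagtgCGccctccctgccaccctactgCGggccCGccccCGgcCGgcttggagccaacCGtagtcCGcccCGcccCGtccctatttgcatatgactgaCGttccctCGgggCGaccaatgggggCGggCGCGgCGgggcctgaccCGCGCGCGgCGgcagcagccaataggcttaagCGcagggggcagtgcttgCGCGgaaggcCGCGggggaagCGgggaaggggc
Zfhx3, chr8:108714394-108714643, plus strand: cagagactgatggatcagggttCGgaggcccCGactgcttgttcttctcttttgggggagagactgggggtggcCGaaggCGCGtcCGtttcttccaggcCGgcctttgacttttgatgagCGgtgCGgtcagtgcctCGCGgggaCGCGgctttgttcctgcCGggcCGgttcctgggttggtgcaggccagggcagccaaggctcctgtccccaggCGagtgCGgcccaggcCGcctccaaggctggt
Mir9-3hg, chr7:79499776-79500025, plus strand: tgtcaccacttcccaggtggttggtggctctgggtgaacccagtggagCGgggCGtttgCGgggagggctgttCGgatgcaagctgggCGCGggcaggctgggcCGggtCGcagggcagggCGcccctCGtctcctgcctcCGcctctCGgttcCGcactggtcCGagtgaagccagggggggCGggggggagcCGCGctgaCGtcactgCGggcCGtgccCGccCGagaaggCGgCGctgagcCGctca
Mir9-3hg, chr7:79515185-79515434, plus strand: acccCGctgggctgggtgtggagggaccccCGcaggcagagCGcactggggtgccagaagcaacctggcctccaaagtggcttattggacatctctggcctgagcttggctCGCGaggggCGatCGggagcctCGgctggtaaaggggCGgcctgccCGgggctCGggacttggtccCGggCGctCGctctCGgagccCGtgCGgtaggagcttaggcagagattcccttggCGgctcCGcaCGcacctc
Tbrg3, chr15:82898462-82898711, minus strand: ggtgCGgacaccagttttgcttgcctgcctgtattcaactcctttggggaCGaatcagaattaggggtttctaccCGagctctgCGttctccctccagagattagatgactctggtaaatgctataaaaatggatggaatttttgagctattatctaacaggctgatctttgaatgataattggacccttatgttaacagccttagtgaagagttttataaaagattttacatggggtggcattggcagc

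Ebf3 encodes an early B-cell factor family transcription factor, Ptch1 the Hedgehog receptor, Smarcd3 a subunit of the SWI/SNF chromatin remodeller, Cic the transcriptional repressor capicua, and Zfhx3 a zinc finger and homeodomain transcription factor. Mir9-3hg is the host transcript of the microRNA miR-9. The 250 bases printed held 43 CpG at Ebf3, 41 at Ptch1, 38 at Smarcd3, 27 at Cic and 18 at Zfhx3. The Mir9-3hg starts had 25 and 20, and Tbrg3 had 4. All of these but Tbrg3 were rich in CpG, as CpG island promoters are.

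Over all of the clustered regions, 22 start windows of 300 bases (250 before the start and 50 from it) of 19 genes were matched, 15 of protein-coding and 7 of long noncoding genes. The pair of Lmo4 windows overlap each other. The median was 29.5 CpG per window, with a range of 5 to 47, and the median GC content was 72.3%. For windows in solitary distal regions the median was 27 CpG, for those in shared gene-end regions 28.0, for those in regions held by fewer libraries 19.0, and for those in no merged region 4.0. At least 20 CpG were found in 16 of the 22 windows (72.7%), against 26.7% of all 32619 windows in the table. The median at starts inside clustered regions thus lay near that of the other shared regions, solitary or at gene ends, and far above that of starts without a region.

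**Figure D1:**
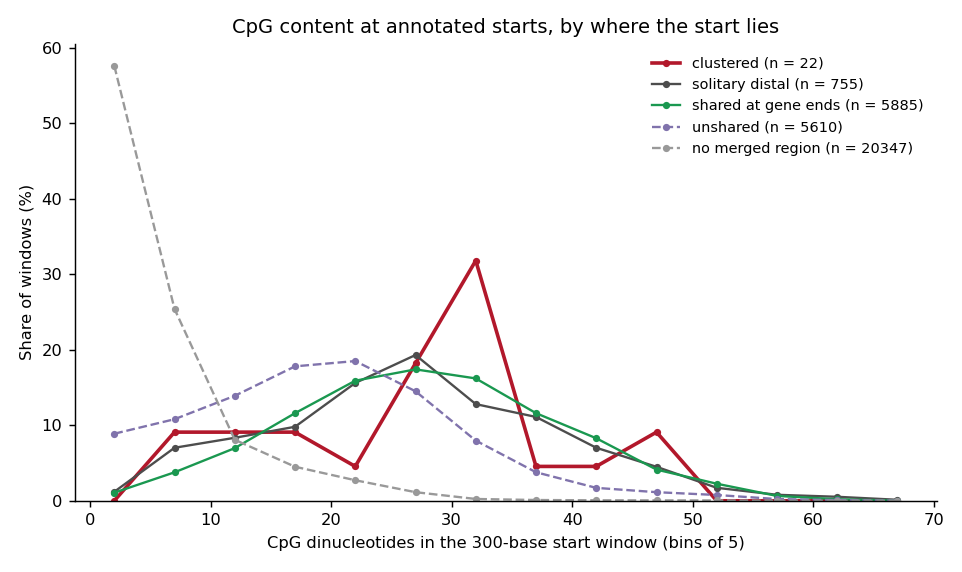
Share of 300-base start windows (vertical axis, percent) by their number of CpG dinucleotides (horizontal axis, bins of 5), for starts in clustered, solitary distal, gene-end and unshared regions and in no merged region. The clustered line lies with the solitary and gene-end lines, with medians of 29.5, 27 and 28.0, and to the right of starts in no region, with a median of 4.0.

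Short motifs were counted on both strands of the same 300-base windows. GGGCGG, the core that SP and KLF factors bind, was found in 17 of the 22 windows (77.3%), against 35.9% of all windows and 74.4% of the windows in solitary distal regions. GGAATG, the TEAD core, was found in 5 (22.7%), against 14.6% of all windows and 11.7% of those in solitary distal regions. The AP-1 motif TGANTCA was in 0, against 7.85% of all windows, 4.64% of those in solitary distal regions and 3.18% of those in shared gene-end regions. The E-box CACGTG was in 0, against 7.2%, 8.34% and 10.7% of the same windows, and the C/EBP motif TTGCNNCAA in 0, against 2.09%, 0.662% and 0.918%. No motif contains another of the 5. A match is a description of letters and not a site, and the windows cover 18 of the 90 regions.

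MicroRNA genes lay in 3 of the 90 regions (3.33%), against 8 of 1238 solitary distal regions (0.646%). The middle region of the cluster near Polg holds the Mir9-3 hairpin (chr7:79505264-79505353, plus strand), with Gm51285 annotated on the opposite strand of the same bases. One region in the cluster near Rab11fip4 holds Mir193a (chr11:79711969-79712034, plus strand), and one in Mast3 holds Mir7240. The mature products of Mir9-3 and Mir193a are given from RefSeq, 5′ to 3′, with the seed (bases 2 to 8) in capitals, because both hairpins lie in clusters outside every protein-coding gene span.
miR-9-5p: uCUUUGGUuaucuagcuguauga
miR-9-3p: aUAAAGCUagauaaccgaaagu
miR-193a-5p: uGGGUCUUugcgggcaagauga
miR-193a-3p: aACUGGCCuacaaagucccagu
The 4 seeds differ from one another. miR-9 is known from neural development and miR-193a as a restraint on growth in several tumours. Levels of the microRNAs were not measured.

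Libraries differed in how many of the clustered regions they held. Azin2-/- replicate 1 held 90, replicate 2 held 85 and replicate 8 held 81, while wild-type replicates 1, 2 and 2b held 68, 85 and 86. Of the 45 regions held by 5 libraries, 22 (48.9%) were missing from wild-type replicate 1, 9 from Azin2-/- replicate 8 and 0 from Azin2-/- replicate 1. Solitary distal regions were alike in this, with 50.6% of those held by 5 libraries missing from wild-type replicate 1 and 18.6% from Azin2-/- replicate 8. In 44 of the 45 cases the missing library had a weaker deposited peak in the region, at a best rank from 30349 to 763693 and a median of 135475, and none of these passed a deposited q of 0.05. The deposited lists held 741843 to 1216000 peaks on these chromosomes. In lists of that length a weaker peak can overlap a region by position alone, and the rate for other regions was not counted. In 10 clusters no region was missing from any library, and in 22 clusters 1 region was missing from 1 library. In 4 clusters more than 1 region was missing, from the same library, and in 7 from different libraries. Mast3, Neurl1b and Nfatc1 were among the clusters without any main peak in wild-type replicate 1.

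Wild-type replicate 1 also stood apart in its regions at a deposited q of 0.01 and in its total cover. It had 42 of the 90 regions at a deposited q of 0.01 or less, against 90, 78 and 64 in the Azin2-/- libraries and 81 and 75 in the other wild-type ones. Its 30000 main peaks covered 18.6 Mb, the least, against 30.0 Mb in Azin2-/- replicate 1, the most. At its lowest score, 4536 peaks were kept and 34668 with the same score were not, so that width, and then position, decided which entered. No pair of libraries had more than 9 main peaks of equal coordinates, and wild-type replicates 2 and 2b had 0. Read depth per library is not given, and every level below depends on these lists.

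The clustered regions had a median length of 2029 bp, with a range of 923 to 5046 bp. Solitary regions had medians of 1874 bp inside genes and 1631 bp between genes. The 47 gaps between adjacent members had a median of 5108 bp and ran from 58 bp in Gse1 to 12498 bp near Cxxc5, the next largest being 11122 bp in Sp8. The closest pairs of shared distal regions left out were 12844 and 14518 bp apart. The member nearest to a gene end lay 1077 bp from it. A further 817 regions over 1 kb from gene ends were held by 4 libraries, 1 short of the number required. Cluster spans ran from 3000 to 20274 bp with a median of 10135 bp. These values describe the selection and are not tested.

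Of the 43 clusters, 21 lay wholly inside protein-coding gene spans, 11 had a gene end between their regions and 11 lay outside every span. Of the 90 regions, 57 were inside a span. In 6 of the clusters across a gene end, a shared gene-end region lay there too. The cluster named for Id3 has its regions on either side of that gene and none inside it. The annotation table used gives spans without exons, so intron, exon and UTR positions within genes are not given. Chromosome 7 carried 6 clusters with 14 regions, and chromosomes 6, 9 and 19 carried 0, although they held 69, 65 and 43 solitary distal regions. Between regions of a cluster, 24 further merged regions held by fewer libraries were found, in 17 clusters. Main peaks covered 4.37 to 11.1% of the gap sequence in the 6 libraries, and 0.745 to 7.09% of an equal length (257 kb) beside the clusters, with the gap value above the flank value in each library. Gaps were chosen to lie between shared regions, so this is a description.

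Several of the genes at the largest clusters encode transcription regulators, a grouping made from general knowledge of the genes and not tested. The 4 clusters of 3 regions lay in or near Bcor, Bbc3, Smarcd3 and Mir9-3hg. The 39 clusters of 2 regions are tied, and the 6 of highest mean cover among them lay in or near Ebf3, Zfhx3, Ptch1, Cic, Prdm13 and Cxxc5. The level of a cluster in a library is given as its cover, the base pairs of main peaks in its regions, summed and not scaled. Values are in the order of replicates 1, 2 and 8 for Azin2-/- libraries and 1, 2 and 2b for wild-type libraries.

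Bcor encodes a corepressor of BCL6 and a part of a variant Polycomb complex. Its cluster (chrX:12078321-12092556) had 3 regions, all inside the gene span and all held by 6 libraries. Cover was 6572, 2672 and 4057 bp in the Azin2-/- libraries and 2961, 4211 and 6872 bp in the wild-type ones. Its mean of 4560 bp was the highest of the 43 clusters, and the libraries of both genotypes spanned almost the same range. The left region was the most uneven, with 399 bp in wild-type replicate 1 and 3459 bp in Azin2-/- replicate 1. The right region was the most even, from 908 to 1608 bp.

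Ebf3 had 2 regions (chr7:137308559-137316376) in its gene span, both held by all libraries. Azin2-/- cover was 4981, 3944 and 3755 bp, and wild-type cover was 3310, 4840 and 4991 bp. The groups overlapped throughout. The larger region (chr7:137312599-137316376) contains the start whose sequence is printed above, and the smaller lay 1648 bp away toward the end of the gene with 1551 to 2217 bp in each library. Ebf3 was one of 5 clusters that returned under each of the 14 other ways of choosing regions that were planned, together with Bcor, Smarcd3, Cic and Gse1, the last a gene for a subunit associated with histone deacetylase complexes.

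Bbc3 encodes PUMA, a BH3-only protein that promotes apoptosis. Its cluster was the longest (chr7:16294784-16315057), with a pair of regions outside the gene and 1 inside it, and a shared gene-end region between them. Cover was 4900, 3539 and 3469 bp in Azin2-/- libraries and 4445, 3909 and 3868 bp in wild-type libraries. These were close to level, with the exception that wild-type replicate 2b held no main peak in the middle region.

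Smarcd3 had 3 regions (chr5:24597871-24605393). Azin2-/- libraries covered 4364, 2729 and 1285 bp, and wild-type libraries 2861, 4240 and 3517 bp. The lowest was Azin2-/- replicate 8, which had no main peak in the right-hand region and no weaker deposited peak there either. The start of Smarcd3 printed above lies in the middle region.

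The cluster at Mir9-3hg (chr7:79499410-79517007), whose nearest protein-coding gene is Polg at 31499 bp, had 3 regions, each missing from 1 library. Cover was 3390, 3742 and 3382 bp in the Azin2-/- libraries and 576, 2613 and 3401 bp in the wild-type ones. Wild-type replicate 1 stood far below the rest, since it held the middle region alone, the one with the miR-9 hairpin. Wild-type replicate 2 held the outer regions, which contain the printed Mir9-3hg starts, and lacked the middle one.

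Cic had the most even of these clusters (chr7:25278018-25283372), with 3773, 3075 and 3455 bp in Azin2-/- libraries and 3444, 2875 and 3220 bp in wild-type ones. Ptch1 (chr13:63561764-63568620) had 4692, 3744 and 3011 bp against 2957, 2379 and 5398 bp. Its larger region, chr13:63561764-63566672, had the highest mean cover of the 90 regions at 3010 bp. Prdm13, a zinc finger gene of neural specification, had 3489, 5139 and 3128 bp against 2547, 2402 and 2873 bp (chr4:21677763-21690095). Here each Azin2-/- library was above each wild-type library before scaling, but not after the scaling to equal total cover that the test used. Near Cxxc5, a CXXC zinc finger gene 11130 bp away, values were 4477, 2015 and 2200 bp against 2121, 3281 and 3972 bp, with the groups overlapping.

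The 5 clusters of largest cover beyond those 10 lay at Id3, Zbtb7a, Rere, near the uncharacterised gene 1700001O22Rik, and at Srrm3. Id3 encodes a helix-loop-helix protein that cannot bind DNA and holds E proteins inactive. Its cluster (chr4:136132861-136148706) had 2129, 1641 and 2572 bp in Azin2-/- libraries and 3515, 2627 and 5562 bp in wild-type libraries. Before scaling the lowest wild-type library was above the highest Azin2-/- one, which no longer held after it. Zbtb7a, a POZ and zinc finger repressor (chr10:81128346-81146334), had 2729, 2258 and 1912 bp against 2671, 2183 and 6189 bp, where wild-type replicate 2b was far above the other 5 libraries. Near 1700001O22Rik, 81536 bp away (chr2:30707473-30714027), the values were 3255, 1850 and 2346 bp against 2013, 1569 and 5224 bp, again with wild-type replicate 2b on top. Srrm3, a splicing factor gene (chr5:135856314-135869910), had 3255, 2453 and 2359 bp against 1179, 3257 and 3377 bp, with wild-type replicate 1 the lowest.

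**Figure D2:**
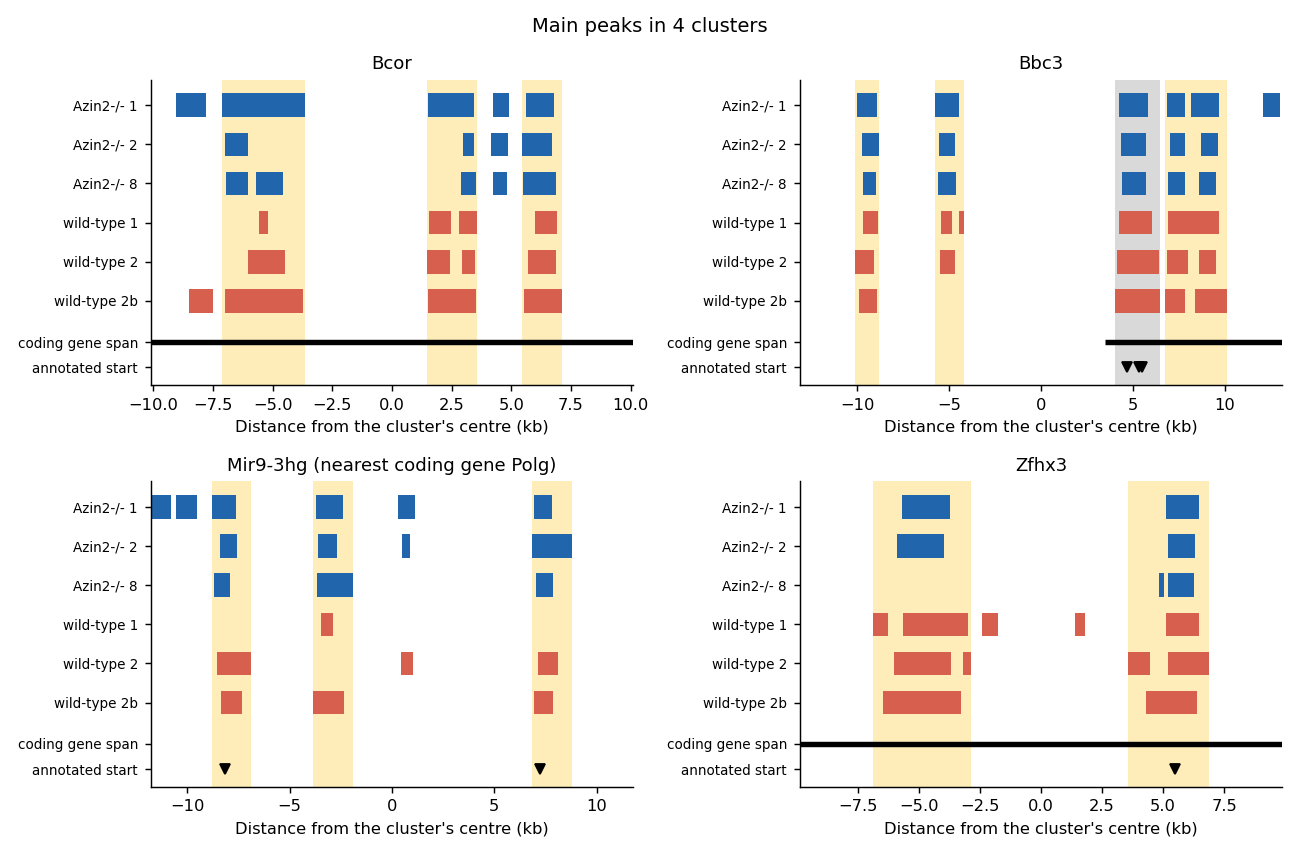
Main peaks of each library (bars, blue for Azin2-/- and red for wild-type) along the clusters at Bcor, Bbc3, Mir9-3hg and Zfhx3, by distance from the cluster's centre in kb; shaded bands are the clustered regions, the grey band in Bbc3 is a shared gene-end region, and triangles are annotated starts. Wild-type replicate 1 has a bar in the middle Mir9-3hg region alone, and Azin2-/- replicate 8 has none in the left Zfhx3 region.

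The remaining clusters had mean covers from 1670 bp in Fgf9 to 2650 bp in Tfap2a. Among them were further transcription factor genes: Tfap2a of the AP-2 family, the LIM homeobox gene Lhx2, the SP family gene Sp8, Nfatc1, a target of calcineurin signalling, Lmo4, a LIM-only cofactor, and the pair Shox2 and Rsrc1, of which Shox2 is a homeobox gene of limb mesenchyme. A cluster lay 1881 bp from Id2, a relative of Id3. Signalling genes with a cluster included Fgf9, a fibroblast growth factor, Neurl1b, a ubiquitin ligase for Notch ligands, and Tbxa2r, the thromboxane receptor. The kinase genes Mast3 and Lmtk3, the kainate receptor gene Grik5 and the epidermal gene Flg, which encodes filaggrin, also had one.

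**Figure D3:**
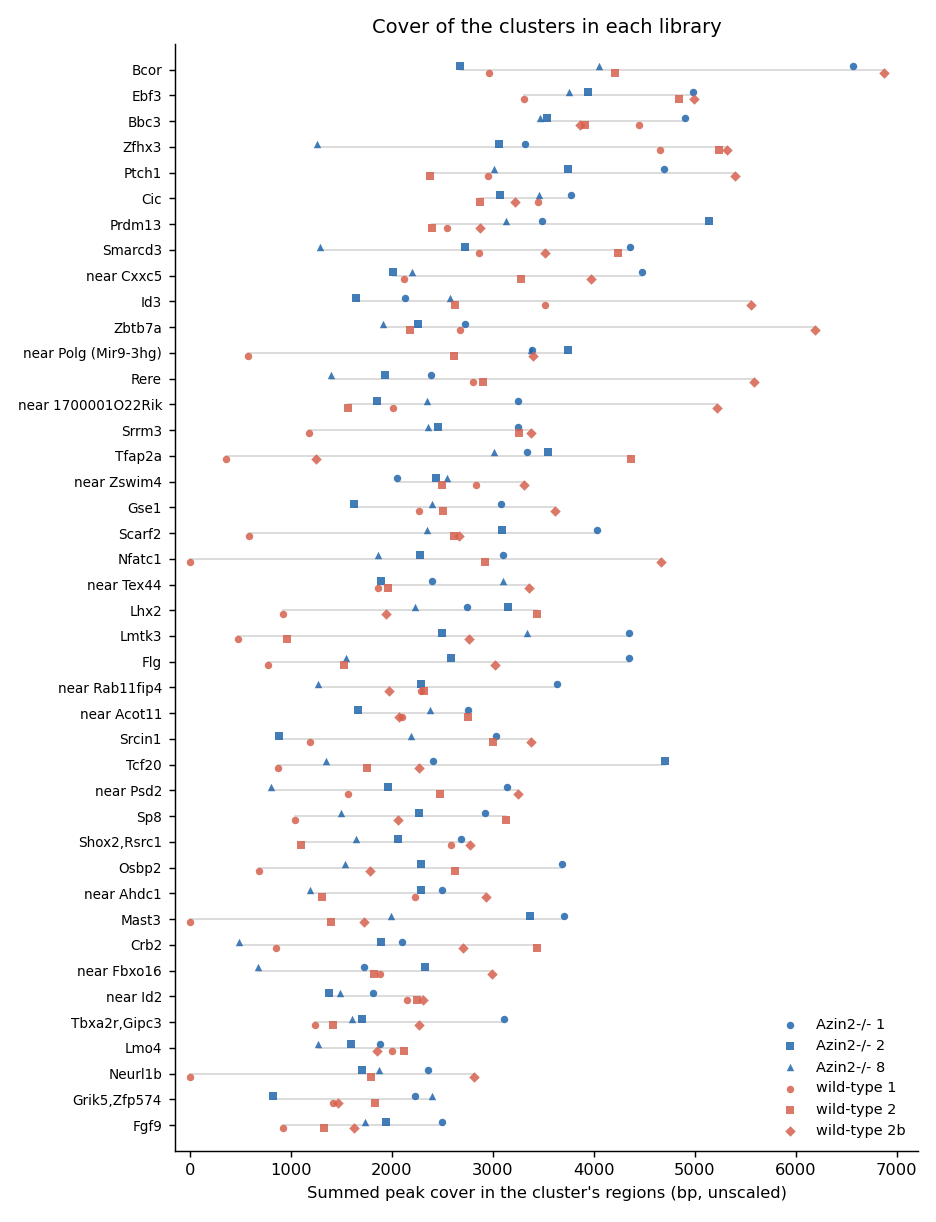
Summed cover of the clusters reported here (rows, ordered by mean) in each of the 6 libraries (horizontal axis, bp, unscaled; blue Azin2-/-, red wild-type; grey line, the range). Means run from 1670 to 4560 bp, and Mast3, Neurl1b and Nfatc1 are at 0 in wild-type replicate 1.

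Clusters were also looked for at genes of adipocyte and other programmes. Across 11 lists of 253 genes for adipogenic regulators, lipid storage, mesenchymal factors, Wnt and TGF-beta signalling, matrix, adhesion, the YAP pathway, AP-1, glucocorticoid response, insulin signalling and polyamines, 2 genes had a cluster. These were Ebf3, 1 of 26 adipogenic regulators, and Shox2, 1 of 30 mesenchymal and depot transcription factors. The other 9 lists had 0, among them 0 of 25 genes of lipid storage and adipocyte products and 0 of 18 polyamine genes, Azin2 and Odc1 (ornithine decarboxylase) included. Over all genes, 46 of 21631 (0.213%) had a cluster, so few are found in lists of this size at that rate as well. Solitary distal regions lay in the spans of 5 of the adipogenic regulators (19.2%), Nfia, Zfp423, Stat5b, Nr3c1 and Nr2f2, and of 1 lipid gene (4.0%), Acaca, against 4.19% of all genes. Over the 11 lists the share ran from 0.0% for AP-1 factors and polyamines to 26.7% for insulin signalling. The lists differ in gene length, with a median of 36.1 kb for adipogenic regulators and 13.3 kb for the lipid genes. The genes with a cluster, which include those nearest to a cluster outside every span, had a median span of 28.7 kb, against 17.3 kb over all genes. Regions had to lie over 1 kb from both gene ends, which leaves more room in long genes, so the lengths are a description. Of the 46 genes, 15 (32.6%) had a main peak at a gene end in all 6 libraries, against 18.6% of all genes.

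No cluster lay at a marker gene of any of 7 cell types. With a cluster at 0.213% of all genes, few or none are found in lists of this size at that rate as well. The labelled cell type was looked for in peaks at gene ends. Of 11 markers of adipocyte progenitors 0 had a main peak at an end in all 6 libraries, and 5, Pdgfra, Ly6a, Dpp4, Pi16 and Col1a2, had none in any. The span of Pdgfra did hold a solitary distal region, the 1 marker gene of the 7 lists that did, against 4.19% of all genes. Of 10 adipocyte markers, Plin1 and Cebpa had one in all 6, and Adipoq, Cd36, Cidec and Retn in none. The count with a peak in all libraries was 0 of 6 for endothelial, immune, skeletal muscle and neural markers, and 1 of 6, Epcam, for epithelial markers. Other markers had end peaks in some libraries: Cdh1, an epithelial cadherin, in 5, the muscle genes Des in 4, Myod1, Pax7 and Ckm in 3 and Myog in 1, and the progenitor markers Dlk1, Icam1 and Thy1 in 3. No list of the 7 thus had end peaks in all libraries at most of its markers, and the part of other cells in the clustered regions was not tested. Azin2 itself had an end peak in all 6 libraries, Azin2-/- ones included, which does not check the deletion, since its position in the gene is not given.

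Peaks in clustered regions were compared with peaks in solitary distal regions within each library. Their median widths were 1349, 1029 and 917 bp in the Azin2-/- libraries and 848.5, 1093.5 and 1364 bp in the wild-type ones. Against solitary regions the difference was positive in 5 of 6 libraries, with a mean of 68.4 bp (SD 44.0, n = 6) and a two-sided exact sign-flip permutation p of 0.0625, 0.125 after adjustment over 6 such comparisons. Wild-type replicate 1 was the exception, at -5.5 bp. Against solitary regions between genes alone it was 191 bp (SD 70.8), positive in 6 of 6, p = 0.031, the smallest this exact test can give, and 0.125 adjusted. Against solitary regions inside genes it was 34.2 bp (SD 35.1), p = 0.0938 by the same exact test. No width difference passed the adjusted threshold. Width also decided ties in the score, so it was not wholly separate from the selection.

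The fold of the summit over its background, as the authors deposited it, had no steady direction between clustered and solitary regions. Its median in clustered regions was 12, 5.91 and 3.71 in Azin2-/- libraries and 4.37, 6.38 and 5.8 in wild-type ones. The difference from solitary regions averaged -0.284 (SD 0.343, n = 6), was positive in 1 of 6 libraries and had an exact permutation p of 0.125. It turned to 0.26 against solitary regions between genes alone (exact p = 0.0625). No difference in summit fold was larger than the spread between libraries. Fold is correlated with the score that chose the peaks, so it was not separate from the selection, and these values are a description. Summits of the libraries that held a region spread over a median of 284.5 bp, against 234 bp in solitary regions inside genes and 150.5 bp in those between genes.

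**Figure D4:**
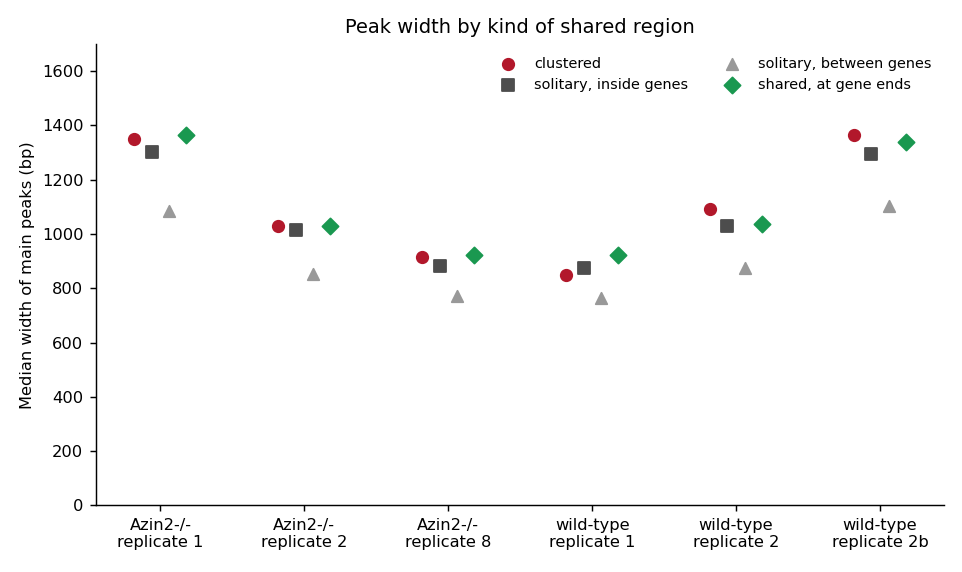
Median width of main peaks (vertical axis, bp) in each library (horizontal axis) for clustered regions, solitary regions inside and between genes, and shared gene-end regions. Clustered peaks are wider than those of solitary regions between genes in 6 of 6 libraries, and differ less from those inside genes.

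As a whole, the clustered regions did not differ between Azin2-/- and wild-type cells by more than the spread between libraries. They held 0.466, 0.432 and 0.431% of main-peak cover in the Azin2-/- libraries and 0.415, 0.501 and 0.492% in the wild-type ones. The means were 0.443% (SD 0.0197, n = 3) and 0.469% (SD 0.0474, n = 3), a difference of -0.0264 percentage points with a two-sided exact permutation p of 0.4 (0.8 adjusted over 2 values). The median cover of a clustered region was 1401, 1081 and 897 bp against 791, 1144.5 and 1371.5 bp, with an exact permutation p of 0.9. With 3 against 3 libraries, the smallest exact p is 0.1. The share difference reached it, at -0.033 percentage points, when only the regions held by all 6 libraries were counted. In bulk chromatin, fewer cells that carry the mark and less of the mark per cell cannot be told apart.

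Region by region, cover was brought to the same total in every library, and log2 differences of (cover + 200 bp) were tested with limma over all 23909 regions with a mean of at least 200 bp. All 90 clustered regions entered. With limma's adjusted p under 0.05, 0 of the 90 were higher and 0 lower in Azin2-/- cells, against 0.0% and 0.00418% of all regions tested. At an unadjusted p under 0.05, 3 (3.33%) were higher and 7 (7.78%) lower, against 3.8% and 1.56% of all tested regions and 1.94% and 3.8% of solitary distal ones. This split depended on the processing, with 4 higher and 3 lower without scaling, 5 and 3 with the 60000 strongest peaks, and 10 and 7 without wild-type replicate 2. After scaling, values of the genotypes did not overlap in 5 regions that were higher (5.56%) and 12 that were lower (13.3%), against 4.78% and 2.54% of all regions and 5.34% and 6.31% of solitary distal ones. The median log2 difference was 0.11 over the 90 regions, 0.07 over solitary distal regions and 0.15 over all regions tested. Its sign over the 90 regions rested on single wild-type libraries: it was -0.14 without replicate 1, -0.04 without replicate 2 and -0.01 without replicate 2b, while the median over all regions was 0.23, 0.39 and 0.41. Because at most 1 library could lack a region, the selection left little room for regions present in 1 genotype.

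As whole clusters, 0 of 43 were higher and 0 lower at limma's adjusted p under 0.05, against 0.0% and 0.0% of the 23862 rows of that table. At an unadjusted p under 0.05, 7 (16.3%) were higher and 10 (23.3%) lower, against 3.82% and 1.53% of all rows, and 1.95% and 9.8% of the 1592 other rows with mean cover in the clusters' range. After scaling, genotypes did not overlap in 3 clusters that were higher (6.98%) and 5 that were lower (11.6%), against 4.78% and 2.51% of all rows and 2.64% and 11.6% of those of like cover. On the lower side the share of clusters without overlap was thus that of rows of like cover. Without scaling, the unadjusted split was 7 higher and 3 lower in place of 7 and 10, with the 60000 strongest peaks it was 7 and 5, and the median over all regions moved from 0.15 to 0.3.

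Zfhx3 and Rere came closest to the threshold, both lower in Azin2-/- cells. Zfhx3 (chr8:108702271-108716045) had 3316, 3058 and 1260 bp in Azin2-/- libraries and 4656, 5242 and 5324 bp in wild-type libraries. Every wild-type library, replicate 1 included, was above every Azin2-/- library. The means were 2544.7 bp (SD 1120.0, n = 3) and 5074.0 bp (SD 364.3, n = 3), and the scaled log2 difference was -1.18 (SE 0.18, limma adjusted p = 0.0592). Both of its regions were on the same side. The left one (chr8:108702271-108706283), which holds no annotated start, had 1967, 1923 and 0 bp against 3304, 2650 and 3222 bp, with a log2 difference of -1.93. Azin2-/- replicate 8 had a deposited peak there at rank 30920, just past the 30000 kept, and without that library the difference was -0.84. The right one, with the printed Zfhx3 start, had 1349, 1135 and 1260 bp against 1352, 2592 and 2102 bp, with -0.70. In the right one wild-type replicate 1 was almost level with Azin2-/- replicate 1 before scaling.

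Rere, which encodes a nuclear receptor coregulator with atrophin homology (chr4:150568549-150583118), had 2389, 1936 and 1396 bp in Azin2-/- libraries and 2808, 2902 and 5586 bp in wild-type ones. The groups did not overlap, and wild-type replicate 2b was well above the other libraries. The log2 difference was -1.0 (SE 0.15, limma adjusted p = 0.0592). Its regions had log2 differences of -1.69 (chr4:150580021-150583118, with 0 bp in Azin2-/- replicate 8) and -0.61 (chr4:150568549-150571036). In the first, Azin2-/- replicate 8 had a deposited peak at rank 30379, just past the 30000 kept. Its difference was -0.94 without that library and -0.77 with the 60000 strongest peaks. Neither passed as a region, at a limma adjusted p of 0.6 each.

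The call for these clusters depended on wild-type replicate 1 and on the processing. Without that library, limma called Zfhx3, Id3 and Rere lower and Lmtk3 higher, and 25 of 30232 rows in all (0.0827%). With that library kept, Zfhx3 was called lower with a pseudocount of 500 bp and with the 60000 strongest peaks. These fits called 0.00419% and 0.00376% of all rows. Zfhx3 and Id3 were called lower in a fit of replicates 1 and 2 of each genotype blocked by number, which called 23 of 34344 rows (0.067%). With no minimum cover, Zfhx3, Id3 and Rere were among the clusters called lower, and 74 of 127588 rows (0.058%) were called. For Zfhx3 the limma adjusted p without wild-type replicate 1 was 2.68e-08 at a log2 difference of -1.10. That fit had 120 prior degrees of freedom, against 11.6 in the main one, so this p draws mostly on the trend over rows. Over the alternatives run, the limma adjusted p for Zfhx3 ranged from 2.96e-58 to 0.619 without scaling. The 2.96e-58 came with no minimum cover and a spread taken wholly from the trend over regions. The log2 difference was below 0 in each alternative.

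The remaining lower clusters without overlap after scaling were Zbtb7a (-0.64), the cluster near Id2 (-0.61) and Lmo4 (-0.44), each at a limma adjusted p of 0.599. The Zbtb7a difference was -0.36 without wild-type replicate 2b, the library far above the others there, and that near Id2 was -0.36 with the 60000 strongest peaks. Near Id2 the values were 1812, 1375 and 1487 bp against 2153, 2253 and 2312 bp, and Lmo4 had 1879, 1594 and 1270 bp against 2004, 2118 and 1857 bp before scaling. The wild-type libraries of both lay close together, and the Lmo4 groups overlapped slightly until scaled. The left Id3 region (chr4:136132861-136137588) had 1175, 994 and 1627 bp against 2315, 1798 and 4414 bp, a log2 difference of -1.10 at a limma adjusted p of 0.6.

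On the higher side, the clusters without overlap after scaling were Mast3 (1.86), Lmtk3 (1.3) and Fgf9 (0.49), each at a limma adjusted p of 0.599. Mast3 encodes a microtubule-associated serine/threonine kinase, and its cluster (chr8:70791879-70798498) had 3701, 3373 and 1995 bp in Azin2-/- libraries and 0, 1396 and 1723 bp in wild-type ones. Lmtk3 (chr7:45792989-45799081) had 4346, 2500 and 3340 bp against 479, 961 and 2760 bp. In both, wild-type replicate 1 was the lowest of all, and in Lmtk3 wild-type replicate 2b was above Azin2-/- replicate 2 before scaling. Without wild-type replicate 1 the Mast3 difference was 0.84 and that of Lmtk3 0.94. Fgf9 (chr14:58074429-58077428) had 2497, 1940 and 1736 bp against 919, 1329 and 1628 bp, and its sign turned to -0.70 when the 15000 strongest peaks were used. Among single regions, both of Mast3 (1.5 and 1.56), 1 in Flg (1.56), 1 in Lmtk3 (0.93) and the one with the Rsrc1 starts (0.47) were higher without overlap after scaling, each at a limma adjusted p of 0.6. In both Mast3 regions and in the Flg region, wild-type replicate 1 had 0 bp. Without that library the Mast3 regions had differences of 0.63 and 1.0 in place of 1.5 and 1.56, and the Flg region 0.82. With the 15000 strongest peaks the second Mast3 value was 0.88 and that of the Rsrc1 region 1.27.

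**Figure D5:**
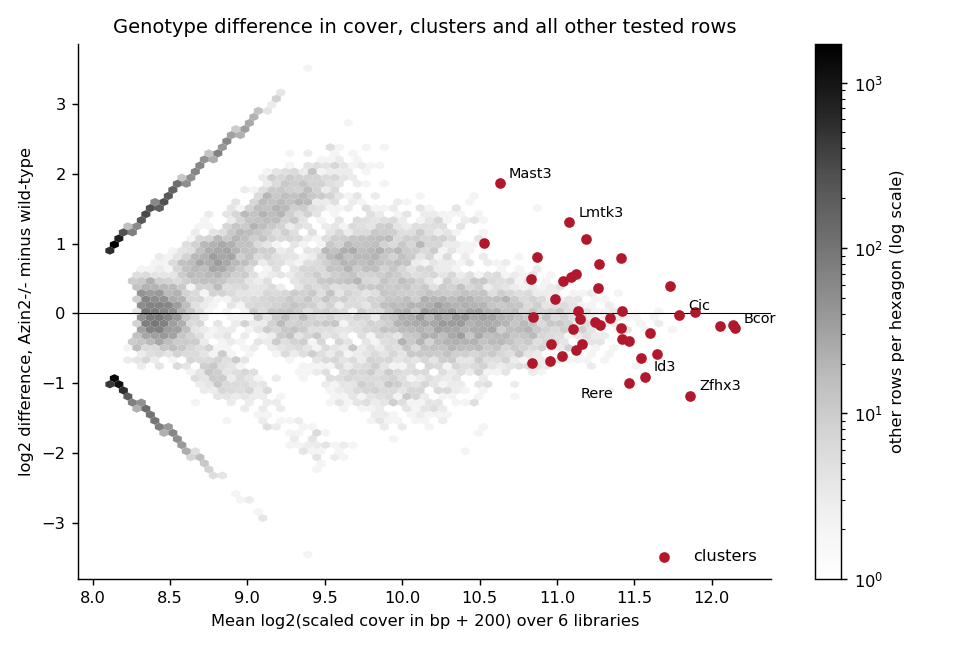
Log2 difference in cover, Azin2-/- minus wild-type (vertical axis), against mean log2(scaled cover in bp + 200) (horizontal axis) for the clusters reported here (red) and the other tested rows (grey, rows per hexagon on a log scale). Differences of the clusters run from -1.18 at Zfhx3 to 1.86 at Mast3; the grey diagonal arms are regions covered in few libraries.

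The direction of the genotype difference was compared between adjacent regions of a cluster. Of the 47 adjacent pairs within clusters, 26 (55.3%) had the same sign, against 57.0% of 149 pairs of neighbouring shared distal regions more than 12500 bp and up to 100 kb apart and 50.5% of 1108 pairs farther apart. Pearson's r of their log2 differences was 0.353 within clusters, 0.134 for the nearer and 0.0182 for the farther of those pairs. These are descriptions over regions of the same 6 libraries, which share each library's list, and carry no test. Zfhx3, Rere and Mast3 were among the clusters with log2 differences of the same sign in both regions, and in Bbc3 the middle region (0.84) differed in sign from those beside it (-0.20 and -0.44).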

How the data were processed

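Each deposited file is the peak list of 1 library on GRCm38 (mm10), per the submitters' processing notes. Neither labels nor files used here name an aligner, a peak caller or the control it used. The deposited score of a peak, 10 times its −log10 p-value without decimals when tested on the files, ranked the peaks, and beside it the authors deposited the fold ratio of the summit over its background and the −log10 p-value and −log10 q-value. All were used within a list only, to rank, filter or describe peaks. Read depth is unknown, and with it the counting error of each peak.

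Regions were chosen as described above, with gene spans, start windows and microRNAs from RefSeq (GRCm38.p6). The members and gene lists were chosen with earlier results of these data known. Covered bp of main peaks per region were brought to the same total in every library, and log2(cover + 200 bp) of regions with a mean of at least 200 bp was fitted on genotype with limma 3.58.1 (R 4.3.3, eBayes with a mean trend; Benjamini-Hochberg over all rows, threshold 0.05). For clusters, the member rows were replaced by their sum. The fit drew the spread of each row toward the trend over rows, with 11.8 prior degrees of freedom for regions and 11.6 for clusters. The SEs and p-values from limma are therefore not the library spread of that row alone. The fit was tested on simulated data. Single values per library had two-sided exact permutation tests, and within-library differences exact sign-flip tests. Named were the 10 clusters with most regions (ties by larger mean cover), the 5 of largest cover beyond those, and per direction up to 5 regions and 5 clusters of smallest p that passed, or else that did not overlap between genotypes after scaling. Further clusters named by the role of their gene, the microRNAs and the printed starts were chosen after values were seen. Alternatives are listed in the closing section. 1 cluster counted among the 43 is not reported here by name or plotted.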

Additional observations from a re-analysis of the deposited data

How the results depend on the processing

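Depth is unknown, lists of equal length carry unequal evidence, and cover in bp is a coarse measure of acetylation. The comparisons with regions between genes or inside genes alone, and with regions over 1 kb from every start, were added after seeing the data. The number of clustered regions and clusters ran from 23 in 11 (held by all 6 libraries) to 146 in 69 (stitching at 25 kb). It was 42 in 20 with peaks at a deposited q of 0.01 or less, 45 in 22 with stitching at 5 kb, 61 in 29 with the 15000 strongest peaks, 128 in 60 with the 60000 strongest, 72 in 34 at 2.5 kb from gene ends, and 56 in 27 over 1 kb from every start. Leaving out 1 library gave 94 to 146 regions in 45 to 68 clusters. The median cover difference turned to -44.7 bp with regions held by all 6 libraries, and ranged from -132 bp (without wild-type replicate 1) to 159 bp with 1 library left out, with -113 bp without Azin2-/- replicate 1. The width difference passed an unadjusted exact p of 0.05 with the mean in place of the median (97.4 bp), against regions between genes (191 bp) and over 1 kb from every start (132 bp), and left-out libraries gave 60.7 to 83.2 bp. It shrank to 6.75 bp with stitching at 5 kb (exact sign-flip p = 0.875) and to 24.1 bp at 25 kb (exact sign-flip p = 0.219). The fold difference turned positive with regions held by all 6 (0.0202), against regions between genes (0.26) and over 1 kb from starts (0.263). The share of cover kept its sign, from -0.0537 to -0.0106 percentage points with 1 library left out. It was -0.0427 with the 15000 strongest peaks and -0.00282 with the 60000 strongest. With regions held by all 6 libraries it was -0.033, at an exact permutation p of 0.1, the smallest that test can give. By limma, 2 regions (Zfhx3 and Id3) were called lower with no minimum cover, where 64 of 127635 regions (0.0501%) were called. Clusters called lower were 1 with a pseudocount of 500 bp (Zfhx3), 1 with the 60000 strongest peaks (Zfhx3), and 6, with 7 higher, with no minimum cover. The shares of all rows called in those cluster fits were 0.00419%, 0.00376% and 0.058%. Leaving out 1 library gave 0 to 1 clusters higher and 0 to 3 lower, the calls coming without wild-type replicate 1, where 0.0827% of all rows were called. The cause was not tested. The Fgf9 difference turned to -0.70 with the 15000 strongest peaks. Replicate numbers 1 and 2 occur in both genotypes. Deviations of same-numbered libraries correlated at 0.069 and 0.0782, weakly, but above the -0.0539 to 0.0438 of pairs of unlike number. The labels do not say whether equal numbers mark a pairing. That was not tested, and the main fit used none. The replicate block called 2 clusters higher (Mast3 among them) and 2 lower (Zfhx3 and Id3), and 0 regions, with a spread taken wholly from the trend over rows. It called 0.067% of all rows in the cluster fit and 0.0611% in the region fit. The blocked difference in share of cover was -0.0092 percentage points. Of the named regions' and clusters' values, 237 kept direction and side of the threshold, 14 passed it and 1 turned.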
